A study of Homo sapiens with 26 samples.

Results

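The regions described here are the keratin and epidermal gene clusters, 4 stretches of the human genome that hold genes for the proteins of skin, hair and other epithelia. They were chosen by position (hg19): the type II keratin cluster at chr12:52500001-53400000, the type I keratin and KRTAP cluster at chr17:38800001-39800000, the KRTAP cluster at chr21:31500001-32300000 and the epidermal differentiation complex at chr1:151900001-153300000. They comprise 41 bins of 100 kb (9, 10, 8 and 14 bins), all with a value, of 30376 bins in the map, of which 26331 were above 0 in 1 cell or more and are called used bins. Each cluster was compared in every cell with the 1 Mb on both sides of it, 80 flanking bins in all.

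The cells were 26 single cells of KBM7, a human leukaemia line with a nearly haploid genome. All came from clone 5-8, were labelled 1N and DamOnly, and had been given 0.5 nM Shield1, a small molecule that stabilises proteins carrying a destabilising domain, for 15 h before collection. Single cells had been sorted from the smallest 2% by scatter and from among those carrying both Fucci markers, which report the cell cycle. Dam is a bacterial enzyme that methylates the adenine of GATC, and the unfused enzyme marks chromatin wherever it has access; the series title names lamin B1, but the sample labels and the design text name Dam alone, and the labels were followed. No RNA was measured, so the identity of the cells could not be checked against marker genes. All cells belong to 1 clone and form 1 sample, so no p-value was computed and each SD is a spread between cells, which may be technical. The values are ratios of observed over expected signal. The level of a bin in a cell is its ratio divided by that cell's mean over all used bins, so that 1 is the cell's average.

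Keratins are the filament proteins of epithelial cells, and each filament pairs a type I with a type II keratin. Keratin-associated proteins, encoded by KRTAP genes, form the matrix around the filaments of hair. The epidermal differentiation complex encodes proteins of the outer layer of the skin, among them filaggrin (FLG), involucrin (IVL), loricrin (LORICRIN) and the small proline-rich and late cornified envelope families (SPRR, LCE). The genes and families named here are known for their use in epithelia, and KBM7 is of blood origin. The statement does not extend to the S100 genes, which are also listed for the complex.

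Gene order was read from the RefSeq gene table of GRCh38.p14, another build than that of the map, so genes were not assigned to bins. In the direction of rising coordinates the chromosome 12 family held 27 protein-coding keratin genes from KRT80 to KRT18 with no other protein-coding gene between them. It includes KRT5, of basal epidermal cells, KRT1, of the layers above them, and at its end KRT8 and KRT18, the keratins of simple epithelia. On chromosome 17, 28 type I keratin genes ran from KRT222 to KRT17, with KRT10, the partner of KRT1, near one end and KRT14, the partner of KRT5, near the other, and with 34 KRTAP genes between KRT40 and KRT33A. On chromosome 21, 33 KRTAP genes from KRTAP24-1 to KRTAP19-8 followed each other without another protein-coding gene. The 16 KRTAP10 and KRTAP12 genes of that chromosome lie further along it and are not part of the cluster. In the epidermal differentiation complex the 50 listed genes ran from S100A10 to S100A8, both of the S100 family. FLG, the LCE genes, IVL, the SPRR genes and LORICRIN stood between them. Whether every listed gene lies within the window, and none in its flanks, was not checked.

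Since Dam can mark only GATC, the 250 bases before the start of a basal keratin gene, of FLG and of a KRTAP gene are shown, from RefSeq (GRCh38.p14), each on the minus strand of its chromosome and read toward the gene, with GATC in capitals.
KRT5: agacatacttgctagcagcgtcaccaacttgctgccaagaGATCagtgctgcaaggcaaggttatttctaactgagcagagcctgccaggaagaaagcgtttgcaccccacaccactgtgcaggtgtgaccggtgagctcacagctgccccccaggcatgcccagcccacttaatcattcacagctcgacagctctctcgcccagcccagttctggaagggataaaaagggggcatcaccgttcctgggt
FLG: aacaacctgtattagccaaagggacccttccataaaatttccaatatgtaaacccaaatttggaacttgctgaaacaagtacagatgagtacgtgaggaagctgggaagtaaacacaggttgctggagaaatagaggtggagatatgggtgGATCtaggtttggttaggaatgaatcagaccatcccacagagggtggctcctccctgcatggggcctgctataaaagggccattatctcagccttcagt
KRTAP24-1: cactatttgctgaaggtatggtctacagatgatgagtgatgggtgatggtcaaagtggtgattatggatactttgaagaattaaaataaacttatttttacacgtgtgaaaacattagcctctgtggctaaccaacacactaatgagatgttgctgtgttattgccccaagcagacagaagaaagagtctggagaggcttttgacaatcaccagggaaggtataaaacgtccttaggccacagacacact
The KRT5 stretch holds 1 GATC, whose first base lies 210 bases before the start, and the FLG stretch holds 1 at 99 bases. None is in the KRTAP24-1 stretch. GATC, which reads the same on both strands and can share a base with CG, also counted, was in 55 of the 143 promoters that the table holds for the 172 listed genes (38.5%), against 34.0% of 15843 protein-coding promoters. By list it was in 10 of 14 for the keratins of chromosome 12, 2 of 20 for the type I keratins, 13 of 33 and 10 of 30 for the KRTAP genes of chromosomes 17 and 21, and 20 of 46 for the epidermal complex. A match or its absence in these stretches says nothing of the rest of a bin. The expectation behind a bin was between 0.674 and 1.47 times that of the median used bin over the 41 members, so none had an unusually small one.

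Whole counts were recovered from the ratios. They totalled 20182 to 178941 per cell, or 0.766 to 6.80 per used bin. A member bin held between 19 and 164 counts over all 26 cells. A single bin in a single cell is therefore mostly counting error, and results are given over clusters or over cells. Cell 22 had the lowest flank level at 3 of the 4 clusters, and the main ratios are also given without it.

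The comparison made was of each cluster with its surroundings in the same cell. All 4 clusters had lower mean levels than their flanks, each in at least 24 of the 26 cells. The mean of the 4 clusters, weighted equally, was 0.839 ± 0.211 (SD, n = 26 cells), against 1.87 ± 0.390 in their flanks, a ratio of 0.448. By cell the cluster mean ran from 0.377 in cell 22 through a median of 0.862 to 1.42 in cell 26, and the flank mean from 0.543 in cell 22 through 1.85 to 2.57 in cell 13. The clusters were lower than the flanks in all 26 cells, and the difference, -1.03 ± 0.319, was -0.166 in cell 22 and below that in every other cell. All 4 clusters were below their own flanks in 23 cells, 3 of them in 2 cells (21 and 22) and 2 of them in cell 11.

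**Figure D1:**
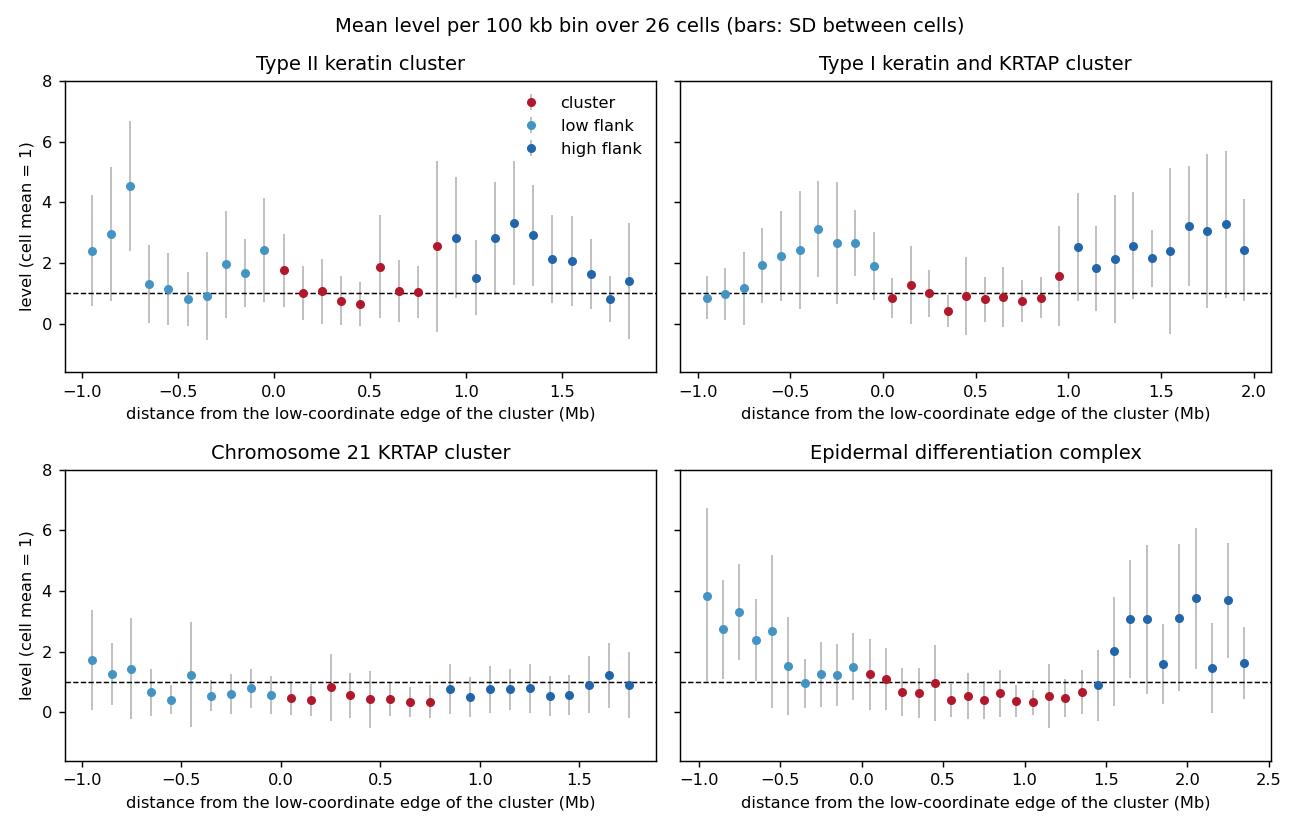
Mean level of each 100 kb bin over 26 cells (points) with the SD between cells (grey bars), by distance from the low-coordinate edge of the cluster, where the dashed line is the cell mean of 1. The cluster bins form a trough between higher flanks on chromosomes 1, 12 and 17, while on chromosome 21 the flanks are low too.

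The epidermal differentiation complex showed the largest difference. Its level ran from 0.0757 in cell 22 through a median of 0.652 to 1.12 in cell 18, with a mean of 0.641 ± 0.245 (SD, n = 26). The lowest value, in cell 22, rests on 1 count. Its flanks ran from 0.713 in cell 22 through 2.23 to 5.11 in cell 10, with a mean of 2.29 ± 0.759. The complex was below both the low-coordinate flank (2.14 ± 0.838) and the high-coordinate flank (2.43 ± 0.884) in all 26 cells. Flanks were 3.57 times as high as the complex. Leaving out cell 22 changed the ratio of complex over flanks from 0.280 to 0.283. The highest complex was then at 1.12 and the lowest flanks at 1.42. Cell 22 was left out for its low flank levels, so this gap depends on that choice. How many other windows would show such a gap was not computed. With cell 22, 11 cells had a complex level above the lowest flank level. From summed counts, 582 in the complex and 2383 in the flanks, the ratio was 0.312, with an exact 95% interval from 0.284 to 0.341. Such intervals here cover counting error only, and copies made by PCR are not independent molecules.

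Along the complex the levels were unevenly distributed. The first bin, at chr1:151900001-152000000, was the highest, with a level of 1.25 ± 1.17 and a ratio of 1 or more in 14 cells, and the second had 1.10 ± 1.02 and 12 cells. S100A10 and S100A11 stand at this end of the gene order, but which genes lie in these bins was not determined and no link with their levels was tested. The other 12 bins averaged below 1. The lowest, at chr1:152900001-153000000, had 0.327 ± 0.411, was at 0 in 12 cells and at 1 or more in 3, and lay at percentile 9.35 of all used bins. Across the high-coordinate edge the mean of 3 bins went from 0.566 ± 0.445 inside to 1.99 ± 1.09 outside, higher outside in 25 cells. The first of those outer bins was still low, at 0.896 ± 1.17, and the next was at 2.01 ± 1.80. At the low-coordinate edge the step was smaller, from 1.33 ± 0.562 outside to 1.00 ± 0.543 inside, lower inside in 19 cells. The 8 bins left without 3 at each edge averaged 0.533 ± 0.277, below the flanks in all 26 cells.

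The type I keratin and KRTAP cluster on chromosome 17 had about the average level of the genome between flanks of more than 2 times that. Its level ran from 0.192 in cell 13 through a median of 0.913 to 1.79 in cell 26, with a mean of 0.926 ± 0.390 (SD, n = 26). The lowest value, in cell 13, rests on 3 counts. Its flanks ran from 0.457 in cell 22 through 2.31 to 3.30 in cell 13, with a mean of 2.28 ± 0.601. The cluster was below its flanks as a whole in all 26 cells, below the low-coordinate flank (1.99 ± 0.599) in 23 and below the high-coordinate flank (2.56 ± 0.921) in 25. Cell 13 had both the lowest cluster and the highest flanks. The ratio of cluster over flanks was 0.407, and 0.405 without cell 22. Apart from cell 22, the lowest flanks were at 1.34, and 3 cells had a cluster level above that. Summed counts (584 against 2659) gave 0.404, with an exact interval from 0.369 to 0.442.

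Within this cluster the mean level of a bin ranged from 0.410 to 1.57. The highest was the last, at chr17:39700001-39800000, with 1.57 ± 1.66 and 14 cells at 1 or more. KRT17 stands last in the gene order, next to EIF1, but which genes lie in this bin was not determined and no link with its level was tested. The lowest was at chr17:39100001-39200000, with 0.410 ± 0.526, at 0 in 11 cells and at 1 or more in 4. The 4 bins without 3 at each edge averaged 0.747 ± 0.498 and were below the flanks in all 26 cells. At the low-coordinate edge the mean of 3 bins went from 2.41 ± 0.811 outside to 1.03 ± 0.617 inside, lower inside in 24 cells. At the high-coordinate edge it went from 1.06 ± 0.618 inside to 2.16 ± 1.38 outside, lower inside in 18.

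The type II keratin cluster on chromosome 12 had the highest ratio to its flanks in mean level and was the only one of the 4 that stood above the genome average in most cells. Its level ran from 0.647 in cell 7 through a median of 1.20 to 2.57 in cell 11, with a mean of 1.31 ± 0.451 (SD, n = 26), and was above 1 in 21 cells. Its flanks ran from 0.465 in cell 22 through 2.05 to 2.97 in cell 26, with a mean of 2.08 ± 0.565. Cells 11 and 22 had the cluster above its flanks and the other 24 below. Cluster and flank values overlapped widely: without cell 22, 18 cells had a cluster level above the lowest flank level of 1.04. The ratio was 0.631, and 0.619 without cell 22. Summed counts (799 against 2471) gave 0.598, with an exact interval from 0.552 to 0.648.

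Bins inside the type II cluster had mean levels from 0.657 to 2.55. The highest bin was the last, at chr12:53300001-53400000, with 2.55 ± 2.82 and 20 cells at 1 or more; cell 26 had 14.0 there, and without that cell the mean was 2.09. KRT8 and KRT18 stand at this end of the gene order, followed by EIF4B. Which genes lie in the bin was not determined, and no link with its level was tested. The bin at chr12:53000001-53100000 had 1.88 ± 1.70 and the first bin of the cluster 1.75 ± 1.21, each with 17 cells at 1 or more. The lowest bin, at chr12:52900001-53000000, had 0.657 ± 0.728, with 8 cells at 1 or more and 10 at 0. Only this bin and the one before it, at 0.760 ± 0.796, averaged below 1. The 3 bins left without 3 at each edge averaged 1.10 ± 0.836, below the flanks in 24 cells. At the low-coordinate edge 3 bins averaged 2.02 ± 1.09 outside and 1.28 ± 0.461 inside. The inside was lower in 20 cells, fewer than the 21 used here to place a value on a side. At the high-coordinate edge 3 bins averaged 1.55 ± 0.928 inside and 2.38 ± 1.06 outside, lower inside in 21.

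The KRTAP cluster on chromosome 21 had the lowest level of the 4, but its flanks were low as well. Its level ran from 0 in cell 10 through a median of 0.448 to 1.17 in cell 26, with a mean of 0.478 ± 0.259 (SD, n = 26), and was below 1 in 25 cells. Cell 10 had no count in the cluster, where 8.31 would stand for a level of 1. If a count of 0 is taken to allow up to 3 counts, the level there could be up to 0.361. That limit treats counts as independent. The flanks ran from 0.506 in cell 10 through 0.781 to 1.77 in cell 26, with a mean of 0.848 ± 0.313. The cluster was below its flanks in 24 cells and above them in cells 11 and 21, at a ratio of 0.564 (0.571 without cell 22). Cluster and flanks overlapped, with 9 cells above the lowest flank level. Summed counts (222 against 1050) gave 0.538, with an exact interval from 0.463 to 0.622. Against the high-coordinate flank alone (0.770 ± 0.379) the cluster was lower in 20 cells, fewer than the 21 used here to place a value on a side, and against the low-coordinate flank (0.925 ± 0.565) in 23.

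No bin of the chromosome 21 cluster averaged above 1. The highest, at chr21:31700001-31800000, had 0.823 ± 1.11 with 6 cells at 1 or more, and 0.645 without cell 26, which had 5.26. The lowest, at chr21:32100001-32200000, had 0.347 ± 0.503 with 2 cells at 1 or more. At the edges neither side was lower in 21 cells: 3 bins inside and 3 outside averaged 0.567 ± 0.422 and 0.653 ± 0.378 at the low-coordinate edge, lower inside in 13 of 26 cells, and 0.377 ± 0.291 and 0.676 ± 0.517 at the other, lower inside in 15. The highest flanking bin was the one farthest away on the low-coordinate side, at chr21:30500001-30600000, with 1.73 ± 1.65.

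**Figure D2:**
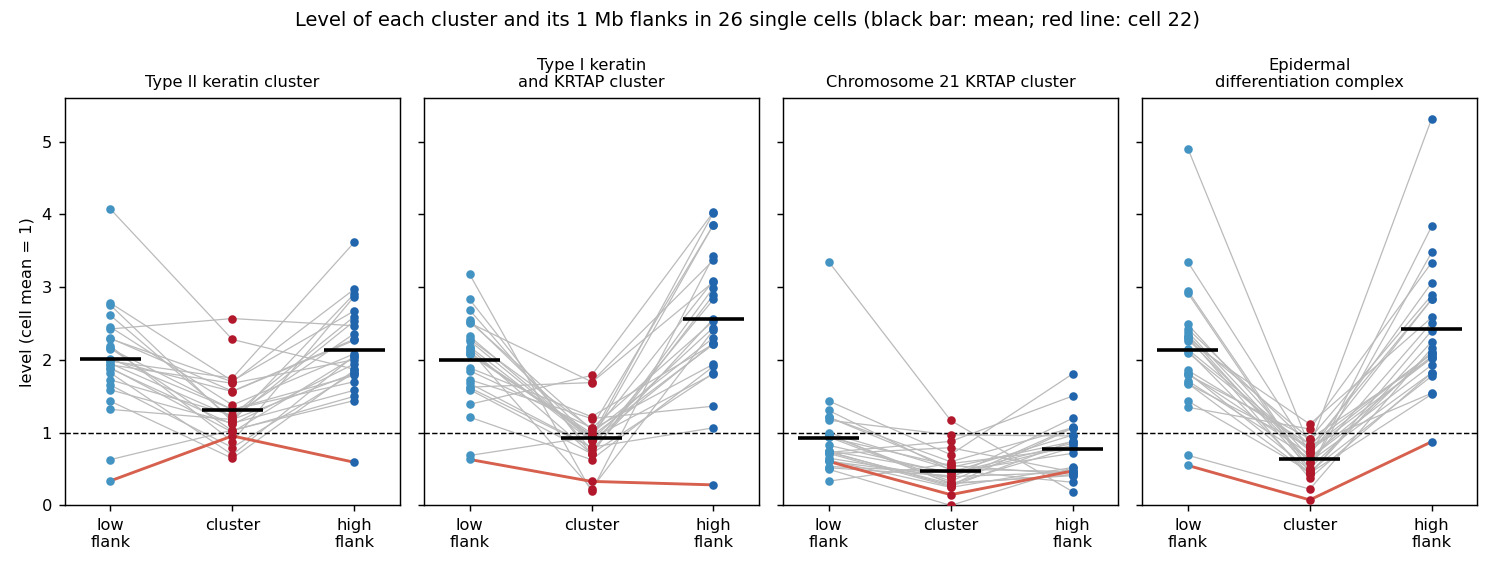
Level of each cluster (middle) and of the 1 Mb flanks on its low- and high-coordinate sides in each of 26 cells, joined by a line per cell; black bars are means and the red line is cell 22. In the epidermal differentiation complex every cell dips between its flanks.

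In level the clusters ranked type II keratin, type I keratin and KRTAP, epidermal differentiation complex and chromosome 21 KRTAP. Of the 6 pairs, those next to each other in this order were not separated in 21 cells: type II was above type I in 20 cells, type I above the epidermal complex in 19, and the epidermal complex above the chromosome 21 cluster in 16. The type II cluster was above the epidermal complex in 23 cells and above the chromosome 21 cluster in all 26, and type I above chromosome 21 in 22. Relative to flanks the order was another. On the log2 scale with 0.1 added to both levels, the ratio of cluster over flanks was lower in the epidermal complex than in type II in 24 cells, than in the chromosome 21 cluster in 23 and than in type I in 21. Type I was lower than type II in 21 cells by 0.64 ± 0.76 on that scale. Type II and chromosome 21 differed in neither direction, with type II higher in 13 cells and a mean difference of 0.18 ± 0.81.

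A level below the mean of the flanking bins is common in such a map. The clusters were set against all windows of the same number of bins, slid along every chromosome by 1 bin. Each window had every bin used and at least 15 of 20 flanking bins used. A window was compared with the mean over its flanking bins, and whether it lay below each side was not tested. Of 24203 windows of 14 bins, 23.5% were below their flanks in at least 21 cells, as were 22.7% of windows of 10 bins, 22.1% of windows of 9 and 21.8% of windows of 8. That all 4 clusters met this rule is to be read against about 1 window in 5. Fewer windows were below their flanks in as many cells as the cluster of their size. The share was 8.179% for type II and 7.766% for chromosome 21 (24 cells each). For type I and the epidermal complex (26 cells each) it was 1.501% and 1.950%. The size of the difference set the clusters apart from each other. For the epidermal complex, no window of 14 bins had a lower difference from its flanks, and 2 had a lower ratio. For the type I cluster, 7 of 24576 windows had a lower difference and 199 a lower ratio (0.810%). The type II cluster, at percentile 1.28 by difference and 13.2 by ratio, and the chromosome 21 cluster, at 13.1 and 7.83, lay within the lower part of the windows. Windows overlap, the 4 clusters themselves are among them, and the percentiles are a description. In level alone no cluster was extreme: the percentiles were 75.7 for type II, 53.5 for type I, 28.6 for the epidermal complex and 16.9 for chromosome 21.

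**Figure D3:**
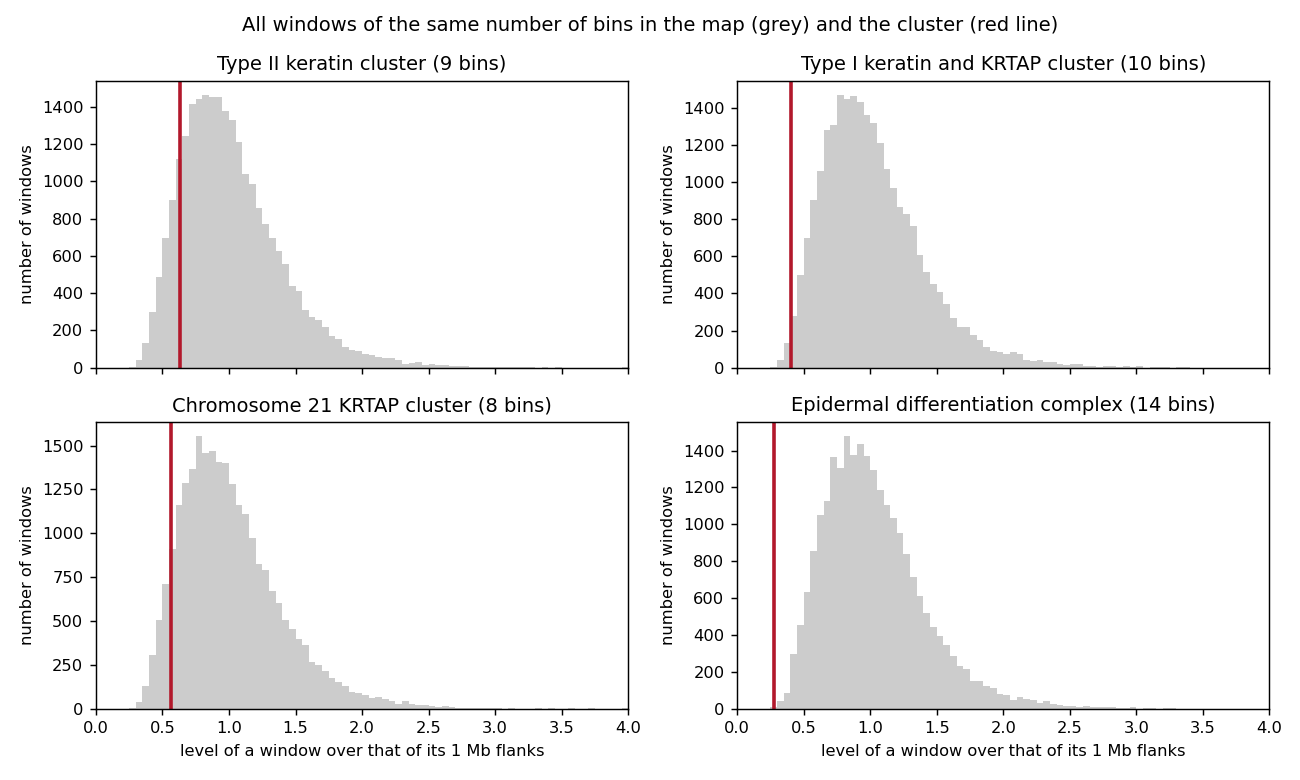
Number of windows (grey) by the ratio of a window's level over that of its 1 Mb flanks, for all windows with as many bins as each cluster, with ratios above 4 counted in the last bar; the red line is the cluster. The epidermal differentiation complex, at 0.280, lies at the lower end of its distribution, and the type II cluster, at 0.631, within it.

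Each cluster was also set against the rest of its chromosome. The epidermal complex was at 0.641 where the rest of chromosome 1 was at 1.16 ± 0.112, lower in all 26 cells. The chromosome 21 cluster was below the rest of its chromosome (1.02 ± 0.212) in all 26 cells too, and the type I cluster below that of chromosome 17 (1.48 ± 0.206) in 23. The type II cluster had a higher mean level, 1.31, than the rest of chromosome 12 (1.08 ± 0.137) and was below it in 7 cells. The cells in which it was above were fewer than the 21 used here to place a value on a side. Flanks stood above their chromosomes at 3 clusters: the low-coordinate and the high-coordinate flank were above it in 24 and 25 cells at the type II cluster, in 21 and 24 at type I and in 24 and 25 at the epidermal complex, but in 8 and 7 at chromosome 21. So the difference of the clusters on chromosomes 1, 12 and 17 from their flanks includes flanks that are high for their chromosome. GC content and gene density of the bins were not analysed here.

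Counts of single bins showed the same contrast. Positive means a ratio of at least 1 in that cell. None of the 41 member bins was positive in at least 21 cells, where 5.61% of all used bins were, but 28 of the 80 flanking bins were: 8 of 20 at type II, 10 of 20 at type I, 10 of 20 at the epidermal complex and none of 20 at chromosome 21. It was 1 member bin of 41 without cell 22, against 6.92% of used bins, and 1 without the 6 cells of lowest total, against 9.18%. Positive in at most 5 cells were 15 of 41 member bins (36.6%), close to the 33.5% of all used bins. The median member bin was positive in 7 cells and the median used bin in 8. The 15 bins were unevenly divided: 6 of 8 bins at chromosome 21, 8 of 14 in the epidermal complex, 1 of 10 at type I and none of 9 at type II. The median member bin had a level of 0.756, against 0.793 over all used bins and 1.70 in the flanks. The share of member bins at 0 was 35.9% per cell on average, against 36.8% of all used bins and 18.8% of flanking bins.

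The longest run of member bins positive in at most 5 cells spanned 4 bins of the epidermal complex, at chr1:152800001-153200000, with a level of 0.430 ± 0.360 from 115 counts. It lies toward the high-coordinate side of the complex, and the genes within it were not identified, since genes were not assigned to bins. At the clusters of chromosomes 1, 12 and 17 the highest bin of each flank, 1 per flank, was at chr12:51700001-51800000 (4.53 ± 2.15, positive in all 26 cells), chr1:150900001-151000000 (3.85 ± 2.88, 23 cells), chr1:153900001-154000000 (3.76 ± 2.32, 24 cells), chr12:53700001-53800000 (3.31 ± 2.05, 22 cells), chr17:40600001-40700000 (3.28 ± 2.43, 22 cells) and chr17:38400001-38500000 (3.12 ± 1.57, 24 cells). The highest of the high-coordinate flank of chromosome 21, at chr21:33100001-33200000, had 1.22 ± 1.07 and 12 cells.

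**Figure D4:**
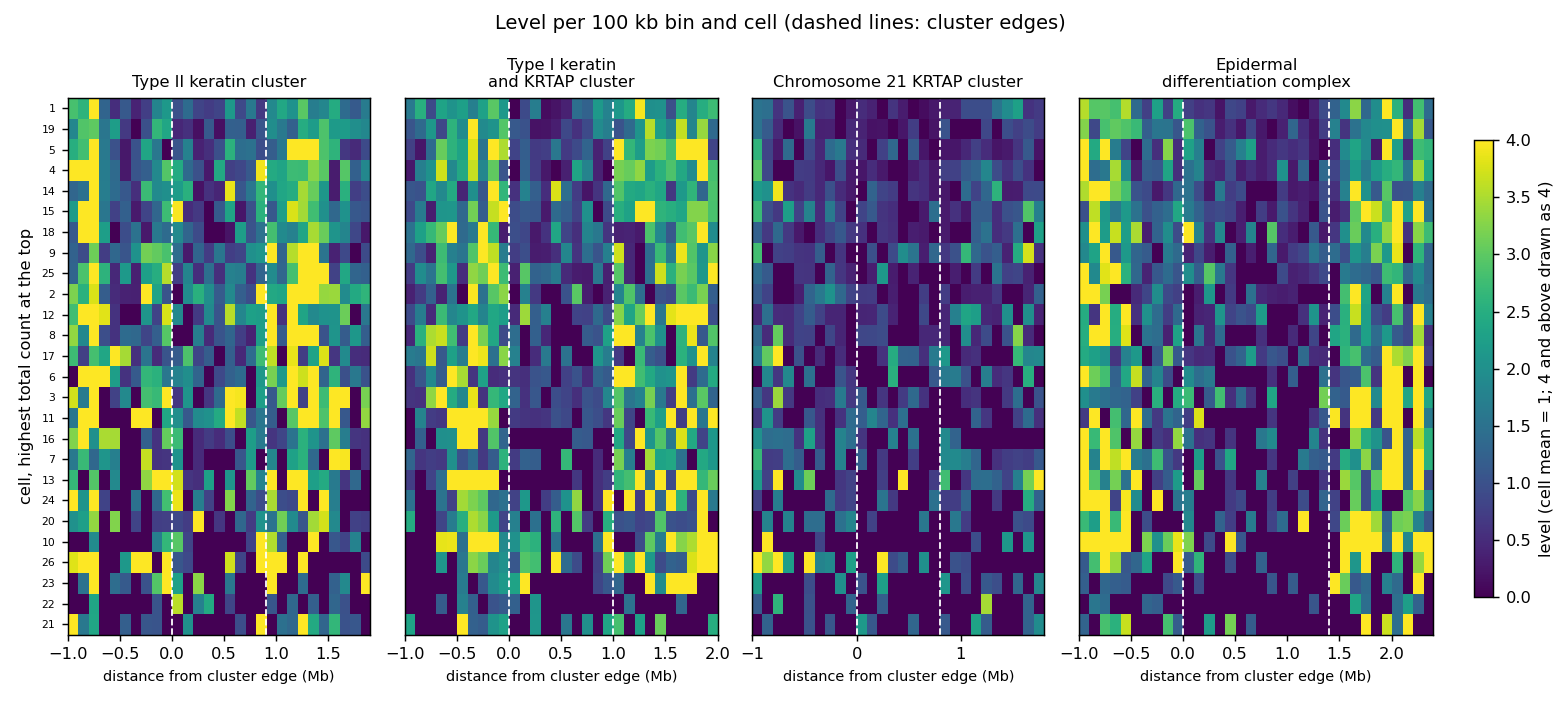
Level per 100 kb bin (columns, by distance from the low-coordinate edge of the cluster) in each of 26 cells (rows, from the highest total count at the top), with dashed lines at the cluster edges; levels of 4 and above share 1 colour. The dark block of the epidermal differentiation complex between bright flanks recurs from cell to cell. The 6 cells of lowest total show many bins at 0, but not in every flank: cell 10 has few in the flanks of the epidermal complex.

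The chi-square of the cells' counts around a shared level, divided by its 25 degrees of freedom, was 3.15 for type II, 1.97 for type I, 2.04 for chromosome 21 and 2.05 for the epidermal complex, where counting noise gives about 1. The counts are of amplified DNA and were treated as independent, so any technical difference between cells raises this measure too. It also grows with the number of counts and is not compared between regions.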

How the data were processed

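Single-cell DamID was deposited as 1 table. Its values are, per the file's name and the deposited numbers, a linear ratio of observed over expected signal per 100 kb bin and cell. Per the submitters' processing notes, reads went through cutadapt and Bowtie2 2.1.0 with build hg19. Per the labels' protocols, methylated DNA was cut with DpnI, ligated to adapters and amplified in 21 extension steps. How reads were counted, bins masked and the expectation made: not given in the sources used here. All 26 columns matched a sample by number; the design text counts 124 cells.

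The ratios of a bin are whole multiples of a step once each cell is scaled, and whole counts and relative expectations were recovered (tolerance 0.001). Of 30376 bins, 3792 had no value and 253 were 0 in every cell. A value was placed on a side at 80% of cells (21 of 26). Bins were named as the highest and lowest of each cluster, the highest of each flank, and single bins positive in few or many cells; some others were named after their values were seen. The members, lists and alternatives (bin filters, capping at the 99th percentile, cells left out, thinning, flank width and side, log2 scale with 0.1 added, medians) were chosen with earlier results of these data known. Differences between a cluster and its flanks were taken within each cell; the printed ratios of cluster over flanks divide means over cells, or counts summed over cells where so stated. The deposited ratio was the only unit used. Motif searches used the RefSeq promoter table of GRCh38.p14. Procedures were tested on simulated data. The tools were matplotlib 3.10.9, scipy 1.17.1, pandas 2.3.3 and numpy 2.4.6 under Python 3.11.15.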

Additional observations from a re-analysis of the deposited data

How the results depend on the processing

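Of 165 recomputed values, 155 kept their direction and side, or stayed within 1 SD of the cells or, for counts, within 1.5 times. This rule is wide. The number of cells below at chromosome 21 went from 24 to 17 with the median over bins and still counted among the 155. In all 69 recomputed differences the clusters were below their flanks. For the epidermal complex the difference ran from -1.79 to -1.07, for type I from -1.63 to -1.07, for type II from -0.896 to -0.680, for chromosome 21 from -0.458 to -0.254, and for the 4 together from -1.25 to -0.828, leaving out the log2 scale. The chromosome 21 cluster lost its side with the median over bins (-0.261, 17 cells below) and with the high-coordinate flank alone (-0.292, 20 cells). The median over bins also moved the level of the epidermal complex from 0.641 to 0.329 and that of the chromosome 21 cluster from 0.478 to 0.289. It moved the level of type II from 1.31 to 0.963 and that of type I from 0.926 to 0.696. Levels were still divided by the cell's mean over used bins, so these medians are not to be read against 1. The cause was not tested. With positive set at 0.5 or more, 3 of 41 member bins reached 80% of cells, against 17.8% of used bins. In each of 3 other settings 1 member bin did, against 9.18% of used bins without the 6 cells of lowest total, 6.92% without cell 22 and 4.55% with every cell thinned to 20000 counts. The low class, up to 20% of cells, held 0 members when a ratio of 0.5 sufficed, 36 when 2 was needed and 6 with thinning, against 6.86%, 75.1% and 19.5% of used bins. In the shallowest cell a used bin held 0.766 counts on average, which limits values of single bins. No paired analysis was possible because the cells form 1 group, so replicate numbers pair nothing; cluster and flanks were compared within each cell throughout.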

Other observations

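Promoters of the listed genes had few CG dinucleotides and often held TATAAA, in counts made after the data were seen. In the 250 bases before the start, the median number of CG was 1 over the 143 promoters found for the lists, against 17 over 15843 protein-coding promoters. It was 1 for the KRTAP genes of both chromosomes and 2 for each of the other 3 lists, and the highest single value, 24, was in the epidermal complex. TATAAA, searched on both strands, was in 29 of 33 KRTAP promoters of chromosome 17, 22 of 30 of chromosome 21, 14 of 20 of type I keratins, 27 of 46 of the epidermal complex and 6 of 14 of the keratins of chromosome 12, together 68.5%, against 9.23% of all. Genes of one family share ancestry, so these are not independent counts, and no link with the Dam signal was tested.

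Across the 26 cells, the levels of the 4 clusters had Spearman correlations between -0.18 and 0.52 over the 6 pairs, the highest for the type II and chromosome 21 clusters. The differences from the flanks gave -0.12 to 0.42. Both are descriptions over cells of 1 clone that share 1 expectation per bin, with few counts in each cluster per cell.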
